A study of Mus musculus with 20 samples.

Results

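The 9 genes described here encode proteins of cytotoxic granules: the granzymes Gzma, Gzmb, Gzmc, Gzmd, Gzme, Gzmf, Gzmk and Gzmm, and perforin, Prf1. They were taken by name from the 17097 genes of the array that had a probe set listed with exactly 1 gene symbol. Where a gene had several such probe sets, the one of highest mean over all 20 arrays was used, whatever the group. RNA was taken from CD44+CD8+ T cells, labelled as effector cells, of mouse lungs bearing 4T1, a mouse mammary carcinoma line. All 4 groups were tumour-bearing, and dosing is described in general as intranasal, with no separate statement of how the antibodies were given. Saline-CTRL (5 arrays) had saline, SD-101 (6 arrays) had a ligand of the DNA receptor TLR9, SD-101+anti-PD-1 (5 arrays, the 2-agent group) had an antibody against the inhibitory receptor PD-1 added, and SD-101+anti-PD-1+a-CD4 (4 arrays, the 3-agent group) had a-CD4 as well. No group had an antibody without SD-101, and the labels give no strain, age, dose or time and do not say what a-CD4 does. Nor do they say that replicates came from separate animals or whether animals were pooled, so a p-value covers only the variation among these arrays, part of which may be technical.

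Cytotoxic T cells and natural killer (NK) cells store granzymes and perforin in granules and release them where they touch a target cell. Perforin forms pores in the target membrane, and granzymes, which are serine proteases, enter the target and cleave proteins there. Granzyme B cuts after aspartate and activates caspases, granzymes A and K cut after basic residues, and granzyme M after methionine or leucine. The mouse has further granzyme genes next to that of granzyme B on chromosome 14, of which Gzmc, Gzmd, Gzme and Gzmf are known from strongly stimulated T cells and NK cells.

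Values are log2 intensities, so a difference of 1 is a doubling, and the level of 1 gene's probe set cannot be set against another's. Across the 20 arrays the deposited values ran from 1.78 to 13.44, with array medians of 3.52 to 3.75. Gzma, Gzmb, Gzmk, Gzmm and Prf1 reached 5 on at least 4 arrays, as did 9620 of 17097 genes, while Gzmc, Gzmd, Gzme and Gzmf did not. The T cell markers of the sort were high in every group, with Cd8a at 9.45 to 11.66 and Cd3e at 7.28 to 9.05. Markers of lung epithelium were as well, with a mean list value of 8.78 to 10.91. The T cell list (11 of 13 genes measured) was lowest on 3-agent replicate 2 (8.37) and Saline-CTRL replicate 1 (8.83), against 9.31 to 10.32 elsewhere. The neutrophil list (8 of 10 genes) was highest on Saline-CTRL replicate 1 (9.94) and 3-agent replicate 1 (8.98), against 3.0 to 6.11 elsewhere. In bulk RNA, fewer cells that make a transcript and less of it per cell cannot be told apart.

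The 250 bases before the start of 6 of these genes are shown. Gzmb and Gzmk were chosen as the members whose rise against saline passed the test in more than 1 treated group. Gzmc, Gzmd, Gzme and Gzmf were chosen as near copies of each other. Among these, the levels of Gzmc went another way than those of Gzmd, Gzme and Gzmf. The sequences are RefSeq's, build GRCm38.p6, whose promoter table held all 9 members. All 6 genes lie on the minus strand, and each sequence reads 5′ to 3′ towards the gene. Capitals mark matches, on either strand, to the core letters of motifs: RUNX (TGTGGT, or ACCACA in reverse), T-box (AGGTGT, or ACACCT), AP-1 (TGANTCA), CRE (TGACGTCA) and the interferon-stimulated response element (ISRE). No marked matches overlap, and none of the 6 windows held the ISRE letters. The windows are Gzmb at chr14:56262335-56262584, Gzmc at chr14:56234658-56234907, Gzmf at chr14:56211408-56211657, Gzmd at chr14:56132594-56132843, Gzme at chr14:56120626-56120875 and Gzmk at chr13:113180966-113181215.

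Gzmb: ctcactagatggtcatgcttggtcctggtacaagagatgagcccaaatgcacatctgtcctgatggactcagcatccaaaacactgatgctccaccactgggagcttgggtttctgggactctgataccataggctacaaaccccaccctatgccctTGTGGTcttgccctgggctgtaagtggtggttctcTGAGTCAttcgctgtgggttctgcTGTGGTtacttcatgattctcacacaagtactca
Gzmc: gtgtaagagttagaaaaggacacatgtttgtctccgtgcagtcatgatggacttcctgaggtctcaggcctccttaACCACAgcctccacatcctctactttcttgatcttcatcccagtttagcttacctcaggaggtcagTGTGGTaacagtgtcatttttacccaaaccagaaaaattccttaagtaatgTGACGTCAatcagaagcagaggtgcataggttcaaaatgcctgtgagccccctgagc
Gzmf: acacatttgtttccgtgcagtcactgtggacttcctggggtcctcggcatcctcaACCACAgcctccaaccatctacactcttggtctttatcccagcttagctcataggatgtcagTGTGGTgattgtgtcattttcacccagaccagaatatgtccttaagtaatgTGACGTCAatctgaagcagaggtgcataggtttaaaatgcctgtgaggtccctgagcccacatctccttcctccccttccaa
Gzmd: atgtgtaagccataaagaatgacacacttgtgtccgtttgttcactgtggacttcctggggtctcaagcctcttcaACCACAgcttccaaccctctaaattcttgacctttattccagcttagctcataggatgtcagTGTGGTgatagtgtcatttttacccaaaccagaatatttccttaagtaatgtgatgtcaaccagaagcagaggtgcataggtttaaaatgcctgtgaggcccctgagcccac
Gzme: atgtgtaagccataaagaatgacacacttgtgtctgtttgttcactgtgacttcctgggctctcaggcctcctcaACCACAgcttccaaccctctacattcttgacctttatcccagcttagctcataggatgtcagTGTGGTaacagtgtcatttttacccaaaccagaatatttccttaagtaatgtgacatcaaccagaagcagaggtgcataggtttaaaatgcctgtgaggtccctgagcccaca
Gzmk: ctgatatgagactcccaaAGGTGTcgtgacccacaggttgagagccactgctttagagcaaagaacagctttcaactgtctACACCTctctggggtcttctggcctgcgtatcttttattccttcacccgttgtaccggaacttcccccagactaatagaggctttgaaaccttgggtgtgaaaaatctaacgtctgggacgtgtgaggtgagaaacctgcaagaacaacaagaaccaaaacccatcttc

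The RUNX letters occurred in 14% of all 32851 windows of this length in the table, the T-box letters in 11.8%, AP-1 in 6.75%, ISRE in 2.98% and CRE in 1.55%. Gzmb held 2 RUNX matches, from bases -93 and -34 counted back from the start, and an AP-1 match from -58. Gzmc, Gzmf, Gzmd and Gzme held 2 RUNX matches each. Of these 4, Gzmc and Gzmf also held a CRE match, from -57 and -82, which Gzmd and Gzme did not. Gzmk held 2 T-box matches, from -232 and -169, and no RUNX match. Of the 3 genes not printed, Gzma held 1 match each to RUNX, T-box and ISRE, Prf1 held 1 each to RUNX and T-box, and Gzmm held 1 to RUNX before 1 of its 2 listed starts. Aligned over the stretch they share, the windows of Gzmd and Gzme were identical at 238 of 250 positions (95.2%), Gzmf matched Gzmd at 88.2% and Gzme at 88.3%, and Gzmc matched the other three at 82.4% to 83.5%. Letters that match are a description of the sequence and do not show that a factor binds.

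**Figure D1:**
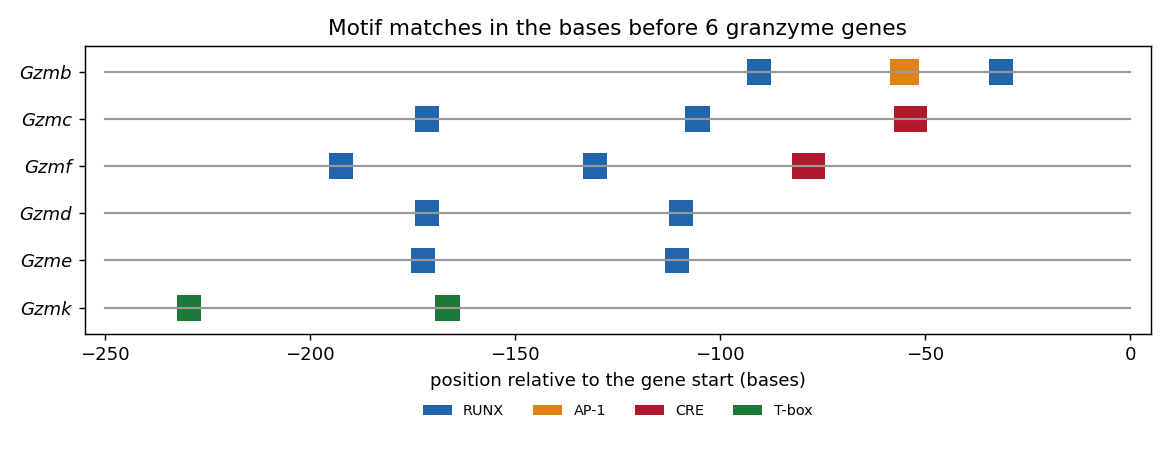
Motif matches in the bases before the 6 genes. The horizontal axis is the position in bases relative to the gene start, each line is 1 gene, and coloured blocks are matches on either strand; Gzmc and Gzmf each carry 1 CRE match, and Gzmd and Gzme carry RUNX matches only.

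Gzmb and Gzmk were higher in the treated groups, Gzmc was highest with SD-101 alone, and Gzmd, Gzme and Gzmf were high mainly on 2 arrays of the 3-agent group. For Gzma, Gzmm and Prf1 no comparison passed the test. That test was limma's moderated test with all 4 groups in 1 fit and Benjamini-Hochberg adjustment over all 17097 genes, and "rose" and "fell" are used for adjusted p under 0.05. A test for any difference among the 4 groups passed for 6 of 9 members, Gzmb, Gzmc, Gzmd, Gzme, Gzmf and Gzmk, beside 8.85% of all genes. Its adjusted p was 0.00142 for Gzmk, 0.00353 for Gzmb, 0.0227 for Gzmc, 0.0265 for Gzmd, 0.0360 for Gzmf and 0.0485 for Gzme, against 0.161 for Gzma, 0.145 for Prf1 and 0.425 for Gzmm.

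**Figure D2:**
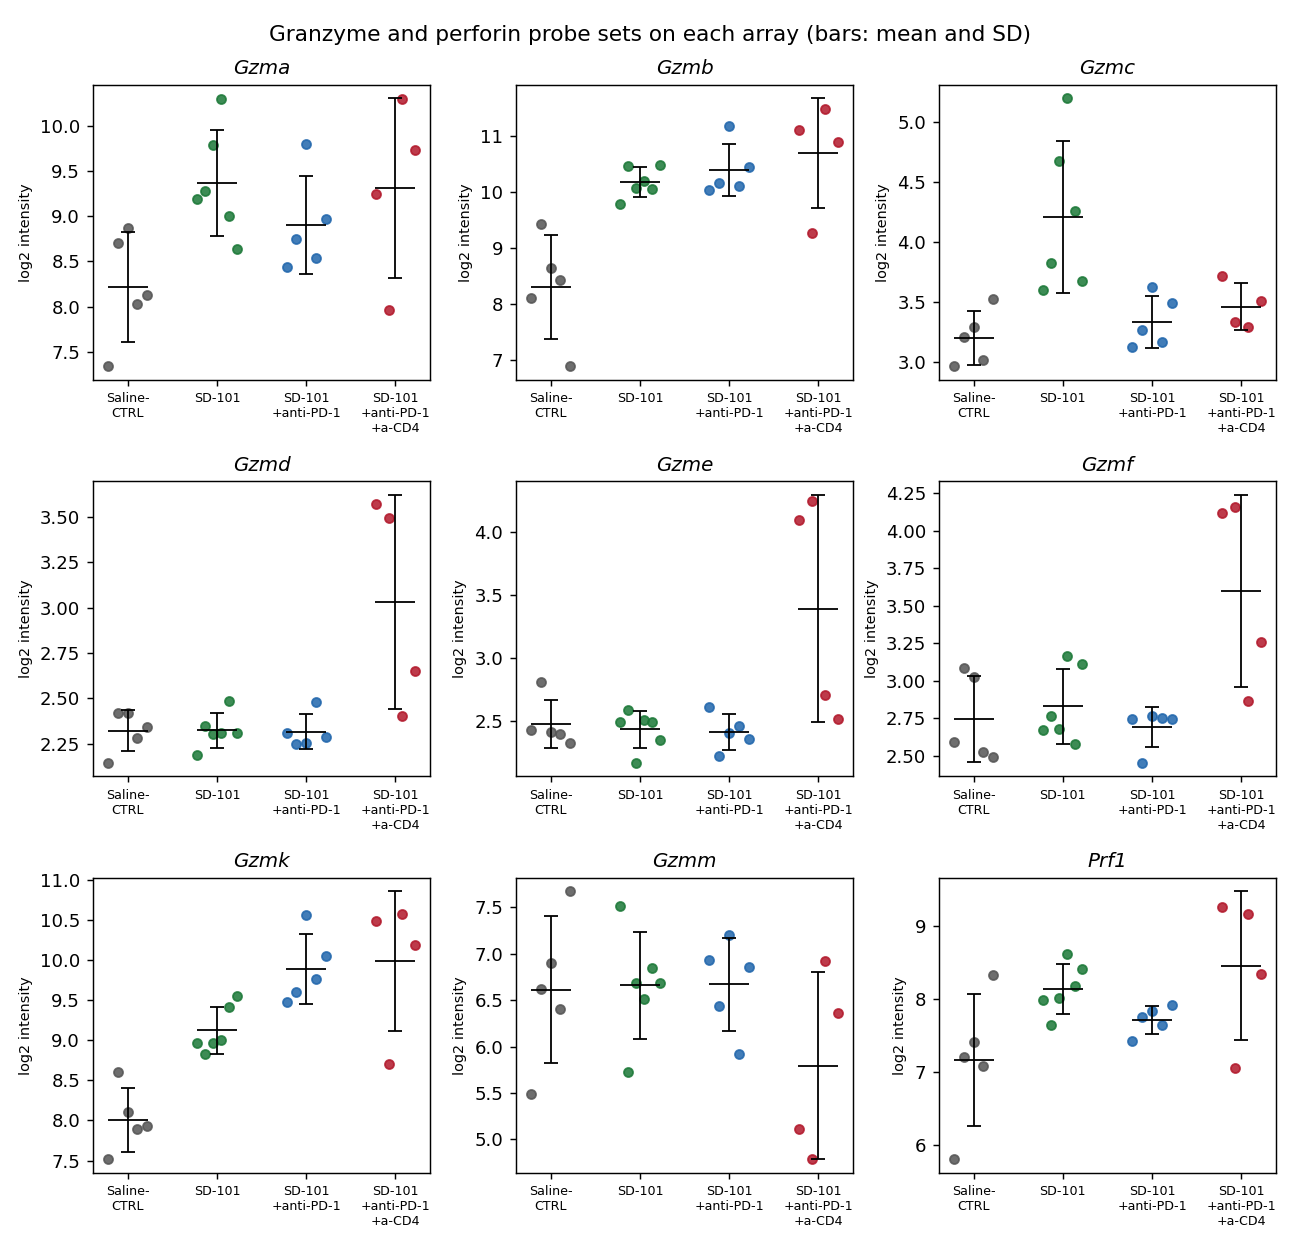
Log2 intensity of each of the 9 genes on every array, by group. Points are arrays, the horizontal bar is the group mean and the whiskers are the SD, and each panel has its own vertical axis, which does not start at 0; the Gzmk points of all treated groups lie above those of Saline-CTRL, and Gzmd, Gzme and Gzmf each show 2 high points in the 3-agent group, shown by its full label SD-101+anti-PD-1+a-CD4.

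Counted over the 9 genes, SD-101 against saline had 1 rise, Gzmb, beside 0.298% of all genes that rose. The median difference of the 9 genes there was 0.97, against 0.01 for all genes, and Gzmb, Gzmc and Gzmk did not overlap between the groups, as for 0.807% of all genes; none of the 9 fell (0.0351%). For the 2-agent group against saline the count was 2 rises, Gzmb and Gzmk (3.47% of all genes), and both were without overlap (3.36%), with a median difference of 0.13 against 0.03. The 3-agent group against saline had 5, Gzmb, Gzmd, Gzme, Gzmf and Gzmk (4.09% of all genes), and Gzmk was without overlap (4.84%), with a median of 0.92 against 0.04. None of the 9 fell in either of these, where 2.15% and 3.03% of all genes did.

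Adding anti-PD-1 to SD-101 gave 1 fall, Gzmc (1.25% of all genes fell), and no rise (3.52%), with a median difference of -0.02 against 0.01. Between the 3-agent group and SD-101, 0 of 9 passed limma's test (0.573% of all genes rose and 0.409% fell), and 5 had an unadjusted p under 0.05. Adding a-CD4 to the 2-agent group gave 2 rises, Gzmd and Gzmf (0.948% of all genes) and no fall (1.18%), and Gzmf was without overlap (3.92%). The median there was 0.41 against 0.00. The mean of the 3 SD-101 groups against saline had 2 rises (2.52% of all genes) and no fall (2.08%), with Gzmb higher by 2.12 (SE 0.33, 4.35-fold, adjusted p = 0.00176) and Gzmk higher by 1.65 (SE 0.25, 3.15-fold, adjusted p = 0.00116). In that comparison Prf1 differed by 0.94 (95% interval 0.26 to 1.61, adjusted p = 0.116) and Gzma by 0.98 (95% interval 0.29 to 1.67, adjusted p = 0.106). Prf1 passed in 2 of 20 fits without 1 array, those without 3-agent replicate 2 (adjusted p = 0.0227) or Saline-CTRL replicate 5 (adjusted p = 0.0387). Gzma passed in 1 of 20, without 3-agent replicate 2 (adjusted p = 0.0248). The adjusted p of the other fits ran up to 0.321 for Prf1 and 0.264 for Gzma.

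**Figure D3:**
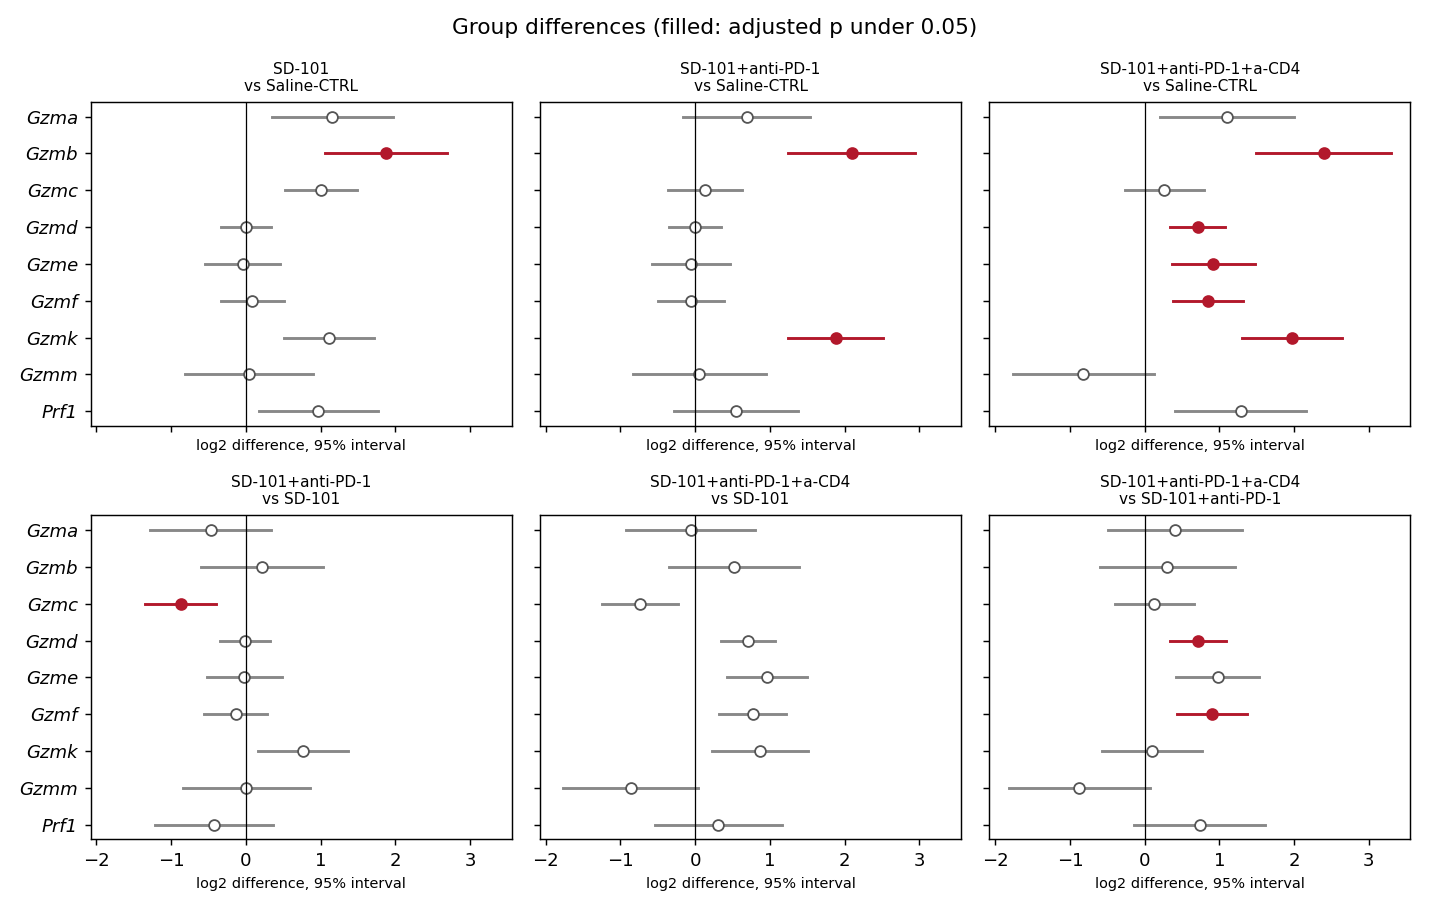
Log2 difference with its 95% interval for each of the 9 genes in 6 comparisons of 2 groups. Filled red points passed at adjusted p under 0.05 and open grey points did not; Gzmb is filled in all 3 comparisons with Saline-CTRL, and Gzmc is filled only for the 2-agent group against SD-101, at -0.87.

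Prf1, the pore former, measured 5.81, 7.20, 7.41, 7.09 and 8.32 on the 5 Saline-CTRL arrays, and on the 6 SD-101 arrays ran from 7.64 to 8.61 with a median of 8.09. It was 7.43, 7.75, 7.84, 7.64 and 7.92 in the 2-agent group, and 9.25, 7.05, 9.16 and 8.34 in the 3-agent group. All 4 groups overlapped, and the means of 7.17 ± 0.90 (SD, n = 5), 8.14 ± 0.34 (n = 6), 7.72 ± 0.19 (n = 5) and 8.45 ± 1.02 (n = 4) were in the order saline, 2-agent, SD-101, 3-agent. No step between neighbours in that order passed the test. Between the ends of the order, Prf1 differed by 1.28 (SE 0.42, 95% interval 0.41 to 2.16, limma adjusted p = 0.0716). Without 3-agent replicate 2, the array of lowest T cell list, that difference was 1.75 (adjusted p = 0.00981), and without Saline-CTRL replicate 5 it was 1.57 (adjusted p = 0.0248). These were the 2 of 9 fits without 1 array that passed, with adjusted p up to 0.207 in the others. With the T cell list's mean as a covariate the difference between the ends was 1.16 (adjusted p = 0.0011), and the difference between the 3-agent and 2-agent groups was 0.86 (adjusted p = 0.0228). Prf1 followed that list across the arrays (within-group r = 0.89, pooled r = 0.76, rho = 0.83, 20 arrays that share a normalization). A second Prf1 probe set was dim, with group means of 3.28 to 3.58.

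Gzmb, the caspase-activating granzyme, was 8.11, 9.43, 8.65, 8.43 and 6.89 on the Saline-CTRL arrays. SD-101 arrays ran from 9.79 to 10.49 with a median of 10.14, and the 2-agent arrays read 10.05, 10.18, 11.19, 10.12 and 10.45. On the 3-agent arrays it was 11.12, 9.27, 11.50 and 10.91. Every SD-101 array and every 2-agent array was thus above every saline array, while replicate 2 of the 3-agent group lay inside the saline range. The means were 8.30 ± 0.93 (SD, n = 5) for Saline-CTRL, 10.18 ± 0.27 (n = 6), 10.40 ± 0.47 (n = 5) and 10.70 ± 0.98 (n = 4), in the order of the treatments named. Against saline, Gzmb rose by 1.88 with SD-101 (SE 0.39, 3.68-fold, adjusted p = 0.0441), by 2.09 in the 2-agent group (SE 0.41, 4.27-fold, adjusted p = 0.0039) and by 2.40 in the 3-agent group (SE 0.43, 5.26-fold, adjusted p = 0.00259), all by limma. These 3 comparisons share the saline arrays. No difference between treated groups passed for Gzmb: the difference was 0.21 (95% interval -0.60 to 1.03) for the 2-agent group against SD-101, 0.52 (-0.36 to 1.39) for the 3-agent group against SD-101, and 0.30 (-0.60 to 1.21) for the 3-agent group against the 2-agent group.

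The SD-101 call of Gzmb was close to the threshold and was lost in 10 of 11 fits that left out 1 array, all but the one without Saline-CTRL replicate 2, although the difference in those 10 was between 1.53 and 1.97. Its adjusted p there ran from 0.0513 without SD-101 replicate 1 to 0.127 without Saline-CTRL replicate 1. The calls of the other 2 treated groups against saline held in all fits that left out 1 array (adjusted p up to 0.0157 and 0.0115). With only the groups compared in the fit, the SD-101 call was lost (adjusted p = 0.106), as was the 3-agent call (adjusted p = 0.0591). Without the 2 arrays of highest neutrophil list, left out after seeing the data, the SD-101 difference was 1.83 (adjusted p = 0.160). With the T cell list as a covariate the SD-101 call was lost as well (1.73, adjusted p = 0.0515). With the NK list as a covariate the SD-101 difference was 1.49 (adjusted p = 0.702). In that fit 0 genes of the whole array passed for SD-101 against saline, against 57 without the covariate. With the lists of NK cells, lung epithelium, endothelium and macrophages as 4 covariates, all 3 calls ended, with differences of 1.01 (adjusted p = 0.383), 0.62 (adjusted p = 0.899) and 1.91 (adjusted p = 0.161). Of all genes, 2, 0 and 37 passed in these 3 comparisons with the 4 covariates, against 57, 962 and 1218 without them. The endothelial list (12 of 12 genes) moved with treatment, at 7.96 to 9.90 on saline arrays, 7.15 to 9.34 with SD-101, 5.38 to 6.45 in the 2-agent group and 6.54 to 7.91 in the 3-agent group.

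Gzmk, a tryptase-like granzyme whose gene adjoins Gzma on chromosome 13, was 7.52, 8.61, 8.10, 7.89 and 7.93 on the saline arrays and ran from 8.83 to 9.54 (median 8.98) with SD-101. In the 2-agent group it was 9.47, 9.61, 10.56, 9.76 and 10.04, and in the 3-agent group 10.48, 8.70, 10.57 and 10.18. All 15 treated arrays were above all 5 saline arrays, which was the case for 0.304% of all genes. The means were, from lowest to highest, 8.01 ± 0.40 (SD, n = 5) in Saline-CTRL, 9.12 ± 0.29 (n = 6) with SD-101, 9.89 ± 0.43 (n = 5) in the 2-agent group and 9.98 ± 0.87 (n = 4) in the 3-agent group. Relative to saline, Gzmk rose by 1.88 in the 2-agent group (SE 0.30, 3.68-fold, adjusted p = 8.5e-04) and by 1.97 in the 3-agent group (SE 0.32, 3.93-fold, adjusted p = 0.00144), by limma. For SD-101 alone the difference of 1.11 (95% interval 0.51 to 1.72) did not pass the test over all genes (adjusted p = 0.155), although no SD-101 array reached down to the saline range. The step from SD-101 to the 2-agent group was 0.77 (95% interval 0.16 to 1.37, adjusted p = 0.142), with 4 of 5 arrays above every SD-101 array. The last 2 groups differed by 0.09 (95% interval -0.57 to 0.76).

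The Gzmk calls against saline held in all fits that left out 1 array (adjusted p up to 0.00643). Both ended with the 4 cell type lists as covariates, at 0.91 (adjusted p = 0.768) and 1.69 (adjusted p = 0.0921). Of all genes, 0 and 37 passed there, against 962 and 1218 without covariates. With the T cell list as the covariate, Gzmk passed also for SD-101 against saline (0.88, adjusted p = 0.0397), for the 2-agent group against SD-101 (0.83, adjusted p = 0.0127) and for the 3-agent group against SD-101 (1.01, adjusted p = 0.0094). Without 3-agent replicate 2, the difference of that group from SD-101 was 1.29 (adjusted p = 0.0354), where all arrays gave 0.86 (adjusted p = 0.166). That was the 1 of 10 fits without 1 array that passed there. Gzmk and Gzmb varied together over the 20 arrays (r = 0.90, rho = 0.89, within-group r = 0.78, and r = 0.92 without the 2 arrays farthest from the median). These arrays share groups and normalization, so the value describes them and is given without a test.

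Gzma, the other tryptase-like member, read 7.34, 8.70, 8.88, 8.03 and 8.13 with saline and 8.64 to 10.30 (median 9.24) with SD-101. It was 8.44, 8.75, 9.80, 8.54 and 8.97 in the 2-agent group and 9.24, 7.96, 10.30 and 9.74 in the 3-agent group. The groups overlapped, although 5 of 6 SD-101 arrays were above every saline array. The means were 8.21 ± 0.61 (SD, n = 5), 9.37 ± 0.59 (n = 6), 8.90 ± 0.54 (n = 5) and 9.31 ± 1.0 (n = 4), so the order was saline, 2-agent, 3-agent, SD-101, and no step between neighbours passed the test. Relative to saline, the limma differences were 1.16 for SD-101 (95% interval 0.35 to 1.97, adjusted p = 0.364), 0.69 for the 2-agent group (-0.16 to 1.53, adjusted p = 0.395) and 1.10 for the 3-agent group (0.20 to 1.99, adjusted p = 0.137). Without 3-agent replicate 2 the last difference was 1.55 (adjusted p = 0.0269). That was the 1 of 9 fits without 1 array that passed, with adjusted p up to 0.334 in the others.

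Gzmm, which encodes granzyme M, was 5.49, 6.62, 6.90, 6.40 and 7.67 with saline and 5.72 to 7.51 (median 6.69) with SD-101. It was 6.94, 6.44, 7.20, 5.92 and 6.85 in the 2-agent group and 5.11, 4.79, 6.92 and 6.36 in the 3-agent group. The first 3 groups overlapped closely, with means of 6.62 ± 0.79 (SD, n = 5), 6.66 ± 0.58 (n = 6) and 6.67 ± 0.50 (n = 5). Replicates 1 and 2 of the last group, whose mean was 5.79 ± 1.01 (n = 4), were below every other array, and the other two were inside the common range. These 2 arrays were also the highest in Gzmd, Gzme and Gzmf. The difference of that group from saline was -0.82 (95% interval -1.77 to 0.13, limma adjusted p = 0.320), and with the T cell list as the covariate -0.94 (adjusted p = 0.0416). That was the 1 of 14 other settings in which it passed, and 0 of 9 fits without 1 array did.

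Gzmc lies beside Gzmb in the cluster and was dim on most arrays. With saline it was 2.96, 3.21, 3.29, 3.02 and 3.52. With SD-101 it ran from 3.6 to 5.20 (median 4.04), above every saline array on all 6. It was 3.13, 3.26, 3.62, 3.16 and 3.49 in the 2-agent group and 3.71, 3.33, 3.29 and 3.51 in the 3-agent group, so both antibody groups were back near the saline range. The means were 4.21 ± 0.63 (SD, n = 6) with SD-101 and 3.20 ± 0.23 (n = 5), 3.33 ± 0.21 (n = 5) and 3.46 ± 0.19 (n = 4) in the saline, 2-agent and 3-agent groups, and no neighbours in the order of these means passed the test. From SD-101 to the 2-agent group, Gzmc fell by 0.87 (SE 0.23, limma adjusted p = 0.0343). The 2-agent mean of 3.33 is below every array's median, so no fold is given. Its difference between SD-101 and saline was 1.0 (95% interval 0.53 to 1.48, adjusted p = 0.0813), and between the 3-agent group and SD-101 it was -0.74 (95% interval -1.25 to -0.24, adjusted p = 0.130).

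The call of Gzmc was lost in 6 of 11 fits without 1 array: without SD-101 replicate 3 (adjusted p = 0.0862), 4 (0.0594) or 5 (0.0637), or 2-agent replicate 1 (0.101), 2 (0.0724) or 4 (0.0969). The saline comparison of Gzmc passed in 2 of 11 such fits, without SD-101 replicate 1 (adjusted p = 0.0381) or 6 (adjusted p = 0.0442). In the others its adjusted p ran up to 0.211. Of the NK list 5 of 9 genes were measured, and 1 of these, Ncr1, passed between groups. Ncr1, the NK receptor gene NKp46, rose by 1.86 with SD-101 against saline (adjusted p = 0.0447), and fell by 1.77 in the 2-agent group (adjusted p = 0.0144) and by 2.89 in the 3-agent group (adjusted p = 0.0118), each against SD-101. That was 1 of 5 each time, beside 0.298% of all genes that rose and 1.25% and 0.409% that fell. The mean of the NK list was 3.61 to 4.11 with saline, 4.28 to 5.49 with SD-101, 4.04 to 4.19 in the 2-agent group and 3.37 to 4.26 in the 3-agent group. The other 4, Klrb1c, Klra7, Klra8 and Klra9, passed in no comparison, and Klrb1c and Klra8 were dim on all arrays (2.75 to 3.55 and 2.13 to 3.01). Klra9 differed by 1.57 between SD-101 and saline (95% interval 0.70 to 2.44, adjusted p = 0.162). Fitted on the 2 groups alone, the fall of Gzmc had an adjusted p of 0.0737. With the NK list as a covariate, the difference of Gzmc between the 2-agent group and SD-101 was -0.29 (adjusted p = 0.557). In that comparison 21 genes of the whole array then passed, against 816 without the covariate. Across the 20 arrays Gzmc and the list had r = 0.87 (rho = 0.66, within-group r = 0.76, and r = 0.69 without the 2 arrays farthest from the median).

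Lists of other cells also had their highest group mean with SD-101 alone. The list of mast cells, which store other proteases in granules, was measured for 11 of 11 genes and had a mean of 4.60 to 5.60 with SD-101, against 3.45 to 4.76 with saline, 3.34 to 4.02 in the 2-agent group and 3.94 to 4.42 in the 3-agent group. With SD-101 against saline 2 of these 11 genes rose, the mast cell proteases Cma1 (2.57, adjusted p = 2.7e-04) and Mcpt2 (2.40, adjusted p = 0.0355), beside 0.298% of all genes. From SD-101 to the 2-agent group 5 of 11 fell, beside 1.25% of all genes. The B cell and plasma cell list (9 of 12 genes) had a mean of 5.27 to 6.59 with SD-101, above all saline arrays (4.43 to 4.99), and was 5.23 to 5.88 in the 2-agent group and 4.48 to 5.33 in the 3-agent group. Of its 9 genes 1 rose with SD-101 against saline (0.298% of all genes), Jchain, the joining chain of antibodies (3.49, adjusted p = 0.0145). Against saline, Jchain (2.85, adjusted p = 0.0088) and Fcer2a (1.69, adjusted p = 0.0021) rose in the 2-agent group (3.47% of all genes). Gzmb rose in both comparisons as well. The part of these lists in the Gzmc and Gzmb results was not tested. The macrophage list (11 of 12 genes), none of which passed limma's test for SD-101 against saline and 4 of which had an unadjusted p under 0.05, was highest on SD-101 replicate 4 (7.29), which was also the array of highest Gzmc (5.20) and highest NK list (5.49).

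**Figure D4:**
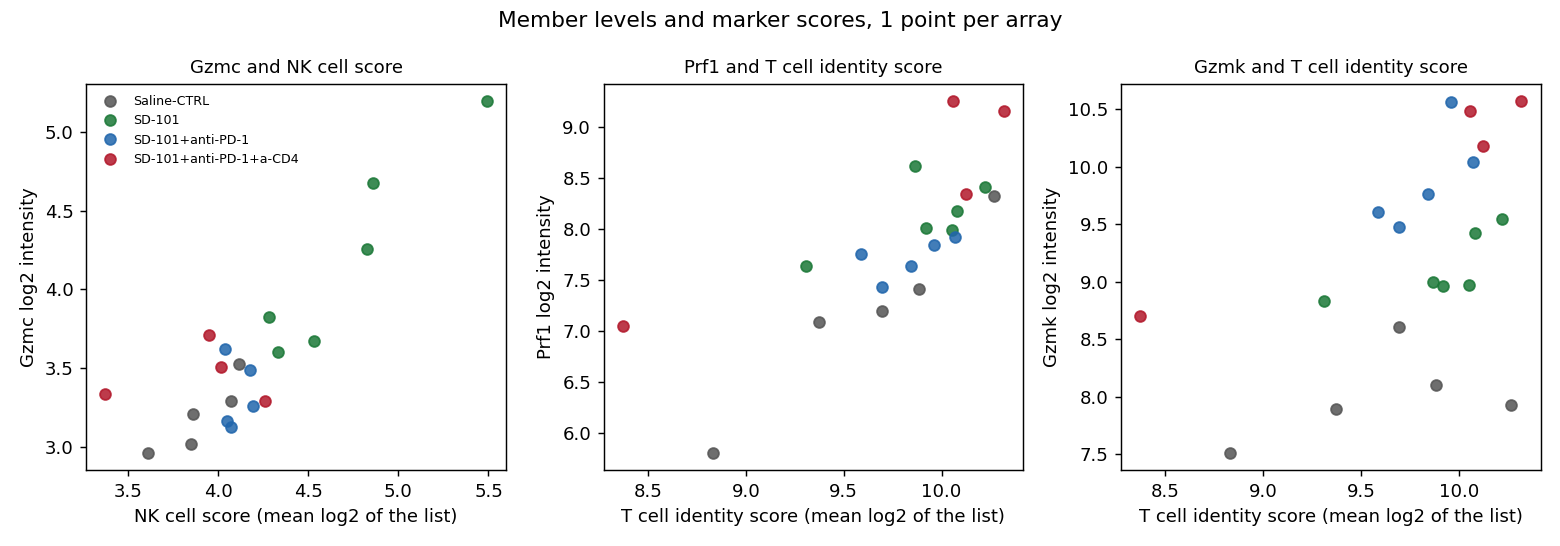
Gzmc against the mean log2 value of the NK cell list (left), and Prf1 (middle) and Gzmk (right) against that of the T cell list, 1 point per array and coloured by group. The 6 SD-101 arrays hold the highest NK list means (4.28 to 5.49), and the 3-agent array at a T cell list mean of 8.37 is the lowest of its group for Prf1 (7.05) and Gzmk (8.70).

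Gzmd, Gzme and Gzmf, granzymes of the same cluster, were near the bottom of the measured range in 3 groups. Outside the 3-agent group, Gzmd lay between 2.14 and 2.48, Gzme between 2.17 and 2.81 and Gzmf between 2.45 and 3.17. In that group Gzmd read 3.57, 3.49, 2.40 and 2.65, Gzme 4.09, 4.24, 2.71 and 2.52, and Gzmf 4.12, 4.15, 2.87 and 3.26, from replicate 1 to replicate 4. Replicates 1 and 2 thus stood above all other arrays for all 3 genes, and replicates 3 and 4 were within or just above the range of the other groups. Group means of the 3-agent group were 3.03 ± 0.59 (SD, n = 4) for Gzmd, 3.39 ± 0.90 for Gzme and 3.6 ± 0.64 for Gzmf, against 2.32 ± 0.11 (n = 5), 2.48 ± 0.19 and 2.74 ± 0.29 in Saline-CTRL. Means in the SD-101 and 2-agent groups were 2.32 for Gzmd in both, 2.44 and 2.42 for Gzme, and 2.83 and 2.69 for Gzmf.

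Against saline, Gzmd rose by 0.71 (SE 0.18, adjusted p = 0.0202), Gzme by 0.92 (SE 0.26, adjusted p = 0.0418) and Gzmf by 0.85 (SE 0.22, adjusted p = 0.0256), by limma. Against the 2-agent group, Gzmd rose by 0.71 (adjusted p = 0.0436) and Gzmf by 0.91 (adjusted p = 0.0430), and Gzme differed by 0.98 (95% interval 0.42 to 1.53, adjusted p = 0.0604). Against SD-101 alone the differences of 0.71, 0.96 and 0.77 had adjusted p of 0.0518, 0.0725 and 0.0859 and were not called. Against saline, the call of Gzmd was lost in 2 of 9 fits without 1 array, that of Gzme in 6 and that of Gzmf in 4. Without 3-agent replicate 1, the differences from saline were 0.53 (adjusted p = 0.0727) for Gzmd, 0.68 (adjusted p = 0.146) for Gzme and 0.68 (adjusted p = 0.0916) for Gzmf. Without replicate 2 of that group they were 0.56 (adjusted p = 0.0711), 0.63 (adjusted p = 0.148) and 0.67 (adjusted p = 0.0897). Leaving out Saline-CTRL replicate 4 or 5 also ended the call of Gzmf (adjusted p = 0.0517 and 0.0541), and Saline-CTRL replicate 1, 3, 4 or 5 that of Gzme (adjusted p = 0.0662, 0.0923, 0.0682 and 0.0751).

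Against the 2-agent group the calls of Gzmd and Gzmf were lost in 7 of 9 fits without 1 array each, all but those without replicate 3 or 4 of the 3-agent group (adjusted p up to 0.171 and 0.169, both without its replicate 2). Without its replicate 3 or 4, Gzme passed in that comparison (adjusted p = 0.0224 and 0.0169), and without replicate 3 all 3 genes passed against SD-101 (adjusted p = 0.014, 0.037 and 0.0248), as Gzme did without replicate 4 (adjusted p = 0.029). Against the 2-agent group these were 2 of 9 such fits for Gzme. Against SD-101 they were 1, 2 and 1 of 10 for Gzmd, Gzme and Gzmf. The probe set not used for Gzmd read 2.95, 2.98, 2.34 and 2.38 on the 4 arrays of the 3-agent group, and the one not used for Gzme 4.09, 3.12, 2.53 and 2.59. Both again had replicates 1 and 2 highest. With the probe set of largest interquartile range in its place, the difference from saline was 0.29 for Gzmd (adjusted p = 0.213) and 0.68 for Gzme (adjusted p = 0.0817). Replicate 1 had the highest neutrophil list of its group (8.98, against 3.70 to 5.91) and replicate 2 the lowest T cell list (8.37, against 10.06 to 10.32). Without 3-agent replicate 1 and Saline-CTRL replicate 1, the 2 arrays of highest neutrophil list, the differences of Gzmd, Gzme and Gzmf from saline were 0.48, 0.67 and 0.64 (adjusted p = 0.125, 0.190 and 0.144). Without 3-agent replicate 2 and Saline-CTRL replicate 1, the 2 of lowest T cell list, the differences from saline were 0.51, 0.62 and 0.63 (adjusted p = 0.120, 0.189 and 0.139). Of the list of CD4 and regulatory T cell markers (8 of 8 genes measured), some genes also rose in these comparisons. Foxp3, the regulatory T cell factor, rose in the 3-agent group against saline (0.59, adjusted p = 0.0156) and against the 2-agent group (0.63, adjusted p = 0.0265), and Tnfrsf4, the receptor OX40, rose against saline (1.31, adjusted p = 0.0135). Thus 2 of 8 and 1 of 8 passed, beside 4.09% and 0.948% of all genes that rose. The list's mean was 5.24, 4.70, 5.43 and 5.49 on replicates 1 to 4 of the 3-agent group. Replicate 2, high in Gzmd, Gzme and Gzmf, was thus the lowest of its group. The other groups had 4.52 to 4.99 with saline, 4.49 to 5.32 with SD-101 and 4.61 to 4.93 in the 2-agent group, and Cd4 itself was dim (group means of 3.08 to 3.32). The part of this list in the result was not tested. With array weights the differences of Gzmd, Gzme and Gzmf from saline were 0.55, 0.60 and 0.64, and none passed (adjusted p = 0.0621, 0.178 and 0.0662). Fitted on the groups compared alone, none of the calls held (adjusted p = 0.175, 0.245 and 0.167 against saline), and all ended with the 4 cell type lists as covariates (adjusted p = 0.305, 0.398 and 0.549). With these covariates 37 of all genes passed against saline and 62 against the 2-agent group, where 1218 and 364 did without them.

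Gzmd and Gzme are close paralogs, and how far their probe sets tell them apart was not tested, so their separate values are uncertain. Over the 20 arrays Gzmd had r = 0.94 with Gzme and 0.91 with Gzmf, but without the 2 arrays farthest from the median these were 0.33 and 0.50, so the size of r rests on replicates 1 and 2 of the 3-agent group. Spearman's rho over all 20 arrays was 0.61 and 0.62. Gzmg and Gzmn, which lie between Gzmd and Gzmf in the cluster and are not among the 9 genes, had group means of 2.36 to 2.54, near the lowest values of the arrays, where a change of the gene might not show. They differed from saline in that group by -0.07 (95% interval -0.29 to 0.15) and -0.11 (-0.32 to 0.09). The cluster runs in the order Gzme, Gzmd, Gzmg, Gzmn, Gzmf, Gzmc and Gzmb.

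**Figure D5:**
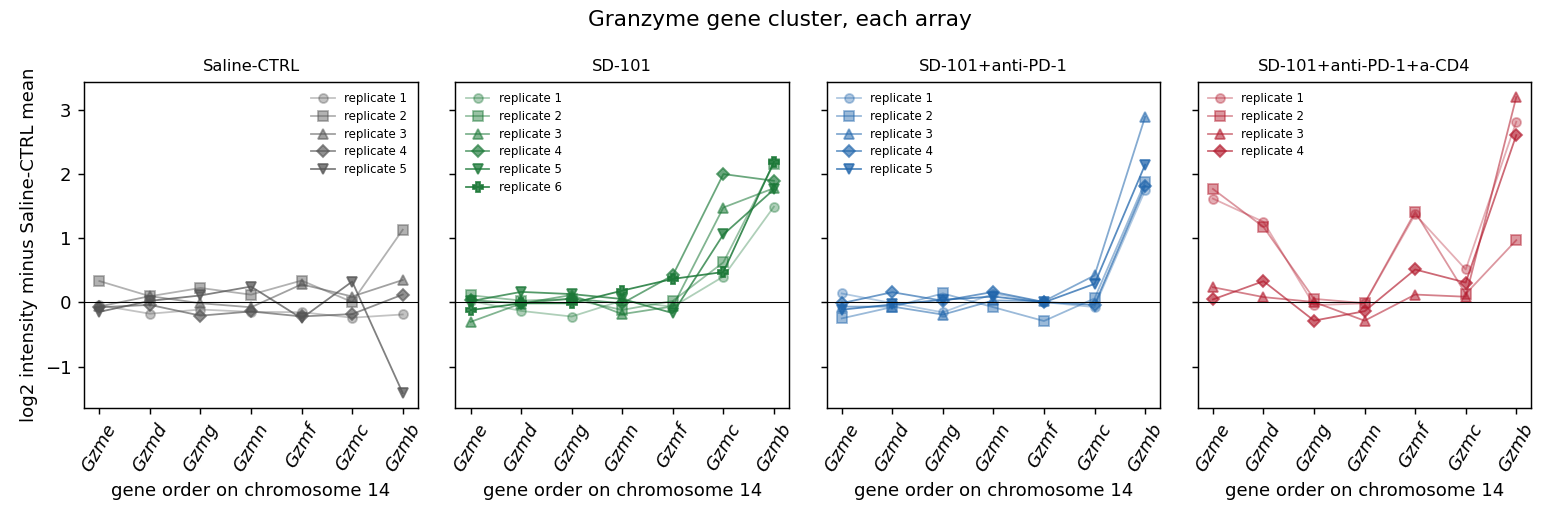
Log2 intensity minus the Saline-CTRL mean for the 7 granzyme genes of the chromosome 14 cluster, in gene order, with equal spacing and 1 line per array. Gzmc is above the line of zero on all SD-101 arrays, with a higher group mean than in the antibody groups, many of whose arrays are also above it. Gzme, Gzmd and Gzmf are highest on replicates 1 and 2 of the 3-agent group, and Gzmb is above the line on every treated array.

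In the other genes of the granule pathway, from 0 to 2 of a list rose in a comparison and none fell, where 0.298% of all genes rose with SD-101, 3.47% in the 2-agent group and 4.09% in the 3-agent group against saline. With 5 to 15 measured genes a list, a count of 0 or 1 does not set a list apart from these shares. None of 10 measured genes (12 listed) of granule processing and storage did so by limma in any of the 7 comparisons, with 0 to 3 at an unadjusted p under 0.05, among them Ctsc, the dipeptidase that activates granzymes, Srgn, the proteoglycan that holds them in the granule, and Nkg7. The highest group mean of Ctsc was 11.27 ± 0.19 (SD, n = 5) in the 2-agent group, against 10.24 ± 0.83 (n = 5) with saline. Of 15 measured genes (16 listed) of granule transport and release, Sytl3, which encodes a synaptotagmin-like protein that binds Rab27, rose in the 2-agent group (1.27, SE 0.35, adjusted p = 0.0361) and the 3-agent group (2.47, SE 0.37, adjusted p = 8.4e-04) against saline. In the latter, the syntaxin gene Stx11 rose as well (0.93, adjusted p = 0.0426), making 2 of 15. In SD-101 against saline none of the 15 passed limma's test, and 1 had an unadjusted p under 0.05.

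Among 5 measured serpin genes (6 listed) that inhibit granzymes or related proteases, 2 rose in the 2-agent group against saline: Serpinb9, an inhibitor of granzyme B (0.89, SE 0.24, adjusted p = 0.0341), and Serpinb6b (1.28, SE 0.31, adjusted p = 0.0173). In the 3-agent group, Serpinb9b rose (0.94, SE 0.25, adjusted p = 0.0281), 1 of 5. Of 13 measured genes (16 listed) for granzyme substrates in target cells, Hmgb2, a chromatin protein cut by granzyme A, rose in the 3-agent group against saline (0.61, SE 0.14, adjusted p = 0.0106) and against the 2-agent group (0.74, adjusted p = 0.012). The RNA is that of the T cell samples, so this list does not measure target cells. The median differences of these 4 lists in the 3 comparisons with saline were between -0.04 and 0.46, where those of all genes were 0.01 to 0.04.

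Of 12 measured transcription factors (13 listed) known to act on granzyme and perforin genes, Tbx21, which encodes T-bet, was the 1 that passed. With saline Tbx21 had a mean of 5.99 ± 0.47 (SD, n = 5), with SD-101 7.26 ± 0.36 (n = 6), in the 2-agent group 7.35 ± 0.29 (n = 5) and in the 3-agent group 7.67 ± 0.99 (n = 4). It rose by 1.36 (SE 0.33, adjusted p = 0.0173) and 1.67 (SE 0.35, adjusted p = 0.00607) in the last 2 groups against saline. For SD-101 against saline its difference was 1.27 (95% interval 0.61 to 1.92), which did not pass limma's test (adjusted p = 0.117). The 2-agent group differed from SD-101 by 0.09 (95% interval -0.56 to 0.74). Eomes, the related factor, had means of 7.96 to 8.56 and passed in no comparison. In SD-101 against saline and in the 3 comparisons between treated groups, no gene of the 5 lists passed limma's test except Hmgb2, and each list had 0 to 4 at an unadjusted p under 0.05.

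Tbx21 was also among the 4 genes most like Gzmb over the 20 arrays, which were Iigp1 (r = 0.92), Tbx21 (0.90), Igtp (0.89) and Osbpl3 (0.89). For Gzmk they were Cxcr3 (r = 0.94), Rbl1 (0.93), Cysltr2 (0.93) and Gimap7 (0.92), and for Prf1 Ikzf3 (r = 0.94), Cd7 (0.93), Sh2d2a (0.91) and Ubash3a (0.90). Gzma was most like Capzb (r = 0.87), Tbx21 (0.84), Chn2 (0.83) and Gna15 (0.82). All 16 had an r of at least 0.60 with their member also in residuals from the group means. Gzmc, added after its values were seen, was most like Aif1 (r = 0.93), Xcr1 (0.90), Sh2d1b1 (0.90) and Mmp12 (0.89). Without the 2 arrays farthest from the median these were 0.75, 0.72, 0.70 and 0.57. These r are Pearson's over arrays that share groups and normalization, picked as the highest among all genes, and describe these arrays.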

How the data were processed

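Affymetrix arrays of 20 samples in 4 groups were read as the authors deposited them, as log2 values per probe set, with RMA, affy, limma and the build mm8 named in the submitters' processing notes. What each tool was used for is not given in the sources used here. No further normalization was applied, and array data carry no read depth, so precision rests on 4 to 6 arrays a group. Of 45141 probe sets, 28898 had 1 gene symbol in the platform annotation, 551 had several and 15692 had none. Each of 17097 genes kept the probe set of highest mean over all arrays. Array pairs correlated at 0.927 to 0.993, and none were identical.

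limma 3.58.1 in R 4.3.3 was fitted with all 4 groups in 1 model (lmFit, eBayes), with two-sided tests and Benjamini-Hochberg adjustment over all genes. Intervals are 95% from that fit, and the code was tested on simulated data. A list's value on an array is the mean of its measured genes. Alternatives were other probe set choices, scalings, a level filter, variance settings, array weights, covariates, a replicate block, the groups compared alone and each array left out. Named were all 9 members, list genes that passed, the 4 genes most like Gzma, Gzmb, Gzmk and Prf1, and defining markers. The members and lists were chosen with earlier results of these data known.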

Additional observations from a re-analysis of the deposited data

Results flagged for a closer look

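In 3 of 36 gene and group combinations, 1 array lay far from the rest of its group by Dixon's test, which chance does in about 1 of 20. Gzmd was 2.48 on 2-agent (SD-101+anti-PD-1) replicate 4, against 2.25 to 2.31 on the rest of that group. Gzme was 2.81 on Saline-CTRL replicate 2, against 2.33 to 2.43. Gzmf was 2.45 on 2-agent replicate 2, against 2.75 to 2.76. All 3 genes were dim in these groups.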

How the results depend on the processing

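With all arrays, 1 of 9 members passed for SD-101 against saline, 2 for the 2-agent group (SD-101+anti-PD-1) against saline, 5 for the 3-agent group (with a-CD4) against saline, 1 for 2-agent against SD-101, 0 for 3-agent against SD-101, 2 for 3-agent against 2-agent, 2 for the mean of the SD-101 groups against saline and 6 in the test among groups. Leaving out each array in turn gave, in that order, 0 to 1, 2 to 2, 2 to 5, 0 to 1, 0 to 3, 0 to 3, 2 to 4 and 3 to 6. With the 4 cell type lists as covariates the count was 0 everywhere. Calls over all genes with these covariates were, in the order above, 2, 0, 37, 0, 5, 62, 1 and 166. Without covariates they were 57, 962, 1218, 816, 168, 364, 786 and 1513. The NK list as a covariate gave 0 for SD-101 against saline, 0 for 2-agent against SD-101 and 0 for 3-agent against 2-agent. Over all genes the calls there were 0, 21 and 423. The T cell list gave 2 for 2-agent against SD-101, 3 for 3-agent against SD-101 and 4 for 3-agent against 2-agent. For SD-101 against saline it ended the call of Gzmb (adjusted p = 0.0515), while Gzmk passed (adjusted p = 0.0397). The level filter tested 5 members and gave 2 for 3-agent against saline, 0 for 2-agent against SD-101, 0 for 3-agent against 2-agent and 2 among groups. The probe set of largest interquartile range gave 3 for 3-agent against saline and 1 against 2-agent, and the mean of a gene's probe sets gave 1 against 2-agent. Array weights gave 3 for SD-101 against saline, 2 for 2-agent against SD-101 and 2 for 3-agent against SD-101, where trend and robust variances gave 1. For 3-agent against saline array weights ended the calls of Gzmd, Gzme and Gzmf, while Gzma and Prf1 passed (adjusted p = 0.0398 and 0.00501). Only the groups compared gave 0 for SD-101 against saline, 1 for 3-agent against saline and 0 for 3-agent against 2-agent. Without the 2 arrays of lowest T cell list, 3-agent had 3 against saline, 1 against SD-101 and 0 against 2-agent, and 2-agent had 2 against SD-101. Without the 2 of highest neutrophil list, an alternative added after seeing the data, the count was 0 for SD-101 against saline, 2 for 3-agent against saline, 0 for 3-agent against 2-agent and 3 among groups. Median centring and quantile normalization changed no count by over 1.5 times. No called difference reversed. The 28 limma fits without 1 array that called 0 members had 2 to 6 at an unadjusted p under 0.05, and the 30 other fits with 0 had 0 to 7.

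Deviations from group means correlated at -0.39 to 0.51 (median 0.01, 27 pairs) between same-numbered arrays. Between arrays of different number they correlated at -0.64 to 0.67 (median -0.01, 122 pairs). This gave no sign that the numbers pair the arrays, but ranges this wide cannot exclude it. With the replicate number as a block, the count was 0 for SD-101 against saline (Gzmb 1.82, adjusted p = 0.120), 0 for 3-agent against 2-agent and 3 among groups.

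Over all genes, calls ran from 57 (25 to 64 without 1 array, 0 to 119 in other settings) for SD-101 against saline to 1218 (665 to 1234, and 37 to 2552) for 3-agent against saline, and 1513 (987 to 1856, and 166 to 3784) among groups. Gzmc, Gzmd, Gzme and Gzmf were too dim for the level filter.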
